A study of Mus musculus with 20 samples.

Results

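The 9 genes described here (S100a8, S100a9, Csf3r, Retnlg, Ly6g, Lcn2, Il1r2, Trem1 and Clec4d) are widely used as markers of mouse neutrophils. They were chosen by mouse gene symbol and found in the count table through their Ensembl identifiers, where they were 9 of 35226 listed genes. Their levels were compared between treatments in LLC1 tumors, and between tumors with lower and higher library codes. S100a8, S100a9, Csf3r and, by a small margin, Trem1 were lower in the 10 tumors given cisplatin than in the 10 not given it, the other 4 members tested were not called, and Ly6g was almost absent from every tumor.

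Neutrophils are short-lived granulocytes that are made in bone marrow and enter tissues from the blood. Their production and release depend on granulocyte colony-stimulating factor (Csf3) acting on its receptor Csf3r, and their entry into tissue depends on chemokines that bind Cxcr2. In tumors, neutrophils mix with monocytes and macrophages, and several genes used to mark them, among them Clec4d, Trem1 and Il1r2, are also transcribed by macrophages.

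Tumors were grown from LLC1, a mouse Lewis lung carcinoma cell line, injected under the skin of male C57Bl6/J mice of 8 to 10 weeks. Mice received vehicle, KW6002 (istradefylline, an antagonist of the adenosine receptor encoded by Adora2a), cisplatin (a platinum compound that damages DNA), or cisplatin with KW6002, called cotreatment below, and 5 tumors per group were sequenced. Each of the 20 libraries came from 1 whole tumor, so malignant, stromal and blood-derived cells are mixed, and a lower level can mean fewer cells of a type or less RNA per cell, which cannot be told apart. All groups share the cell line and the host strain, and the title of vehicle replicate 1 names its agent in a shorter form than those of the other vehicle tumors. Libraries held 28.4 to 41 M counts, the lowest Spearman correlation among the 40 pairs of replicates was 0.979, and no pair was close enough to be 1 library deposited in duplicate. Sample names carry library codes that form a lower and a higher run of numbers. The lower run, here called earlier, held 3 cotreated, 2 cisplatin, 2 KW6002 and 1 vehicle tumor. The higher run, here called later, held 2, 3, 3 and 4 in that order. The labels do not say what the codes stand for.

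S100a8 and S100a9 encode the subunits of calprotectin, a calcium- and zinc-binding protein that fills the neutrophil cytosol. S100a8 (ENSMUSG00000056054) lies on the plus strand of chromosome 3 from 90668978 to 90670035, and S100a9 (ENSMUSG00000056071) on the minus strand from 90692632 to 90695721 (GRCm38, GENCODE M21). Csf3r (ENSMUSG00000028859) lies on chromosome 4 from 126024550 to 126044440. All 9 genes are annotated as protein coding, and none of their exons overlaps an exon of another annotated gene.

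Upstream sequence of S100a8 and S100a9, the pair with the largest decreases, and of Clec4d, a member that was not called lower, is shown for comparison. Windows of 250 bases before the RefSeq start (GRCm38.p6) were searched on both strands for TTNNGNAA, a core that C/EBP factors of the granulocyte lineage can bind, and capitals mark its matches. For S100a8 the 157 bases that precede the annotated gene, chr3:90668821-90668977 on the plus strand, are printed. For S100a9 (chr3:90695722-90695971, minus strand) and Clec4d (chr6:123261857-123262106, plus strand) the whole window is printed.
S100a8: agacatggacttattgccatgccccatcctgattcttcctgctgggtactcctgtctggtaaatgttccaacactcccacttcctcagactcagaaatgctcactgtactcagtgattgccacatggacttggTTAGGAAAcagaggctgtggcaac
S100a9: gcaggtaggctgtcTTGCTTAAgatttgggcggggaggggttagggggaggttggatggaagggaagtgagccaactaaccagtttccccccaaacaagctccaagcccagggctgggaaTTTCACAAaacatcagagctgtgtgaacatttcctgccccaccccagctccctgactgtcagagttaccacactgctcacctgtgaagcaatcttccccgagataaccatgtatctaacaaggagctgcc
Clec4d: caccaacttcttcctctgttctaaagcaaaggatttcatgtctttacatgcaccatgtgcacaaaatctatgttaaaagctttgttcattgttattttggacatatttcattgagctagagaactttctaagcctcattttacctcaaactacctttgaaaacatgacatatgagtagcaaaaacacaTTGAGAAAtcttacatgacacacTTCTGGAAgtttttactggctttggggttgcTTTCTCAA

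The S100a8 window held 1 match, whose first base lies at -117 from the RefSeq start, and the S100a9 window held 2, at -236 and -130. The Clec4d window held 3 matches, at -62, -39 and -8. Of the 9 members 7 had at least 1 match, Csf3r and Il1r2 having none, and 36.8% of 32851 mouse promoter windows of this length had one. The letters GAGGAAG, a core of the ETS factor PU.1, were found in 5 of the 9 members and in 10.6% of all windows, and 0 matches of these motifs overlapped in the members. The letters were present both in members called lower after cisplatin and in Clec4d, which was not, and a match is not evidence that a factor binds.

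Counts of 8 of the 9 members were high enough to be tested. Ly6g (ENSMUSG00000022582, chromosome 15, 75155240 to 75159126) encodes the surface protein by which mouse neutrophils are commonly sorted, and it was the exception. Its counts lay between 0 and 8 in vehicle, 1 and 8 in KW6002, 1 and 7 in cisplatin and 1 and 4 in cotreated tumors. The gene used to sort neutrophils was therefore at the edge of detection in every group, and it was left out of the tests by the filter on low counts.

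Of 14 genes of neutrophil granule proteins, many of which are transcribed while the cells are still in the marrow, 9 were too low to be tested. Myeloperoxidase (Mpo) had at most 5 counts in any tumor, neutrophil elastase (Elane) at most 2, and cathelicidin (Camp) was at 0 counts in all tumors of 3 groups and had 5 in KW6002 replicate 1. Lactoferrin (Ltf) and Ngp had 22 and 29 counts in that same tumor and at most 4 in any other. The 5 that were tested included the gelatinase gene Mmp9 at 21.9 ± 7.77 CPM (counts scaled by library size, mean ± SD, n = 5) and the collagenase gene Mmp8 at 3.31 ± 0.708 CPM in vehicle tumors. Mature neutrophil genes were better represented, with 15 of 18 passing. The chemokine receptor Cxcr2 was measured at 4.80 ± 1.53 CPM in vehicle tumors. Because Ly6g and several granule genes were near 0, the name neutrophil marker here refers to the list, not to a cell count.

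Levels of different genes were compared per length, as RPKM (CPM divided by exon length in kilobases). In vehicle tumors S100a9 was highest at 63.4 ± 27.3 RPKM (SD, n = 5), followed by S100a8 at 25.5 ± 10.5 and Clec4d at 19.7 ± 4.27. The other members were lower, from Il1r2 at 5.50 ± 1.26, Csf3r at 4.58 ± 1.46, Retnlg at 4.15 ± 0.547 and Trem1 at 3.21 ± 0.6251 to Lcn2 at 1.55 ± 1.27 and Ly6g at 0.132 ± 0.0949. Ranges of 1 SD overlapped between S100a8 and Clec4d, and between each neighbour in the order from Il1r2 to Lcn2. They did not overlap between S100a9 and S100a8, Clec4d and Il1r2, or Lcn2 and Ly6g. In cotreated tumors the order differed. Clec4d was highest there at 24.1 ± 6.12 RPKM, S100a9 stood at 8.77 ± 6.70 and S100a8 at 6.16 ± 2.48.

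To ask how cisplatin altered these genes, S100a8 and S100a9 were examined first. S100a8 was measured at 29.7, 14.3, 15.8, 18.4 and 10.4 CPM in vehicle replicates 1 to 5 and at 33.5, 22.1, 18.5, 17.4 and 10.7 CPM in KW6002 replicates 1 to 5. It was measured at 2.71, 2.41, 3.66, 6.84 and 14.6 CPM after cisplatin and at 3.52, 3.69, 3.001, 7.29 and 3.87 CPM after cotreatment. Of the 10 tumors given cisplatin, 9 lay below every tumor that was not, and cisplatin replicate 5 lay within the range of the vehicle tumors. The group means in falling order were 20.4 ± 8.37 CPM for KW6002, 17.7 ± 7.29 for vehicle, 6.04 ± 5.08 for cisplatin and 4.28 ± 1.72 for cotreatment (SD, n = 5). Ranges of 1 SD overlapped between all neighbours in this order, vehicle and cisplatin included.

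S100a8 fell by 1.55 ± 0.458 on the log2 scale after cisplatin (SE, adjusted P = 0.0288, edgeR) and by 2.05 ± 0.468 after cotreatment (adjusted P = 0.00261), each against vehicle. Among 8 members tested it was the only one called after cisplatin, and 4.57% of all 16665 genes tested were called lower in that comparison. Without cisplatin replicate 5 the value after cisplatin was -2.18. The call did not hold in all settings. It was lost without vehicle replicate 1 or 4 and without cisplatin replicate 1, 2, 3 or 4 (adjusted P up to 0.0761), and in the later run alone the log2 fold change was -0.80 (adjusted P = 0.222).

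S100a9 was measured at 56.8, 28.4, 28.7, 33.2 and 18.6 CPM in vehicle replicates 1 to 5 and at 67.9, 42.1, 30.3, 31.3 and 18.6 CPM in KW6002 replicates 1 to 5. After cisplatin it was measured at 3.82, 2.44, 6.63, 11.4 and 27.5 CPM and after cotreatment at 4.26, 2.29, 2.46, 10.7 and 3.21 CPM. Again 9 of 10 tumors given cisplatin lay below all others, with cisplatin replicate 5 as the exception. After cotreatment S100a9 fell by 2.85 ± 0.62 on the log2 scale (SE, adjusted P = 0.00201, edgeR), a 7.19-fold lower level than in vehicle. After cisplatin alone its log2 fold change was -1.68 ± 0.59, which missed the threshold (adjusted P = 0.0625), but it was called without cisplatin replicate 5, at -2.45, or cotreatment replicate 4 (lowest adjusted P = 0.00862) and in DESeq2 (adjusted P = 0.026).

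Csf3r, the receptor through which granulocyte colony-stimulating factor drives neutrophil production, was measured at 24.3, 16.1, 18.3, 13.3 and 10.5 CPM in vehicle replicates 1 to 5. KW6002 tumors had 32.9, 23.3, 12.9, 16.4 and 14.4 CPM. Cisplatin tumors had 4.70, 5.74, 9.71, 13.1 and 18.1 CPM and cotreated tumors 7.12, 6.998, 5.70, 8.97 and 7.14 CPM. All cotreated tumors were below all vehicle tumors, whereas cisplatin replicates 4 and 5 overlapped with vehicle. Csf3r fell by 1.197 ± 0.338 on the log2 scale after cotreatment (SE, adjusted P = 0.0103, edgeR), and its value after cisplatin was -0.68 ± 0.334 (adjusted P = 0.173).

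S100a8, S100a9 and Csf3r were the 3 members called after cotreatment against vehicle, where 10.4% of all genes tested were called lower. Over the 8 members the median log2 fold change was -0.52 after cisplatin and -0.44 after cotreatment, against 0 and -0.02 over all genes tested. The cisplatin and cotreatment comparisons share the same vehicle tumors. In the later run alone, where 12.8% of all genes were called in either direction, Csf3r was the only member called after cotreatment, at -0.83 (adjusted P = 0.0467), with S100a8 at -1.38 (adjusted P = 0.112) and S100a9 at -1.94 (adjusted P = 0.0836) for 2 cotreated and 4 vehicle tumors. The earlier run holds 1 vehicle tumor and allowed no comparison with vehicle.

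**Figure D1:**
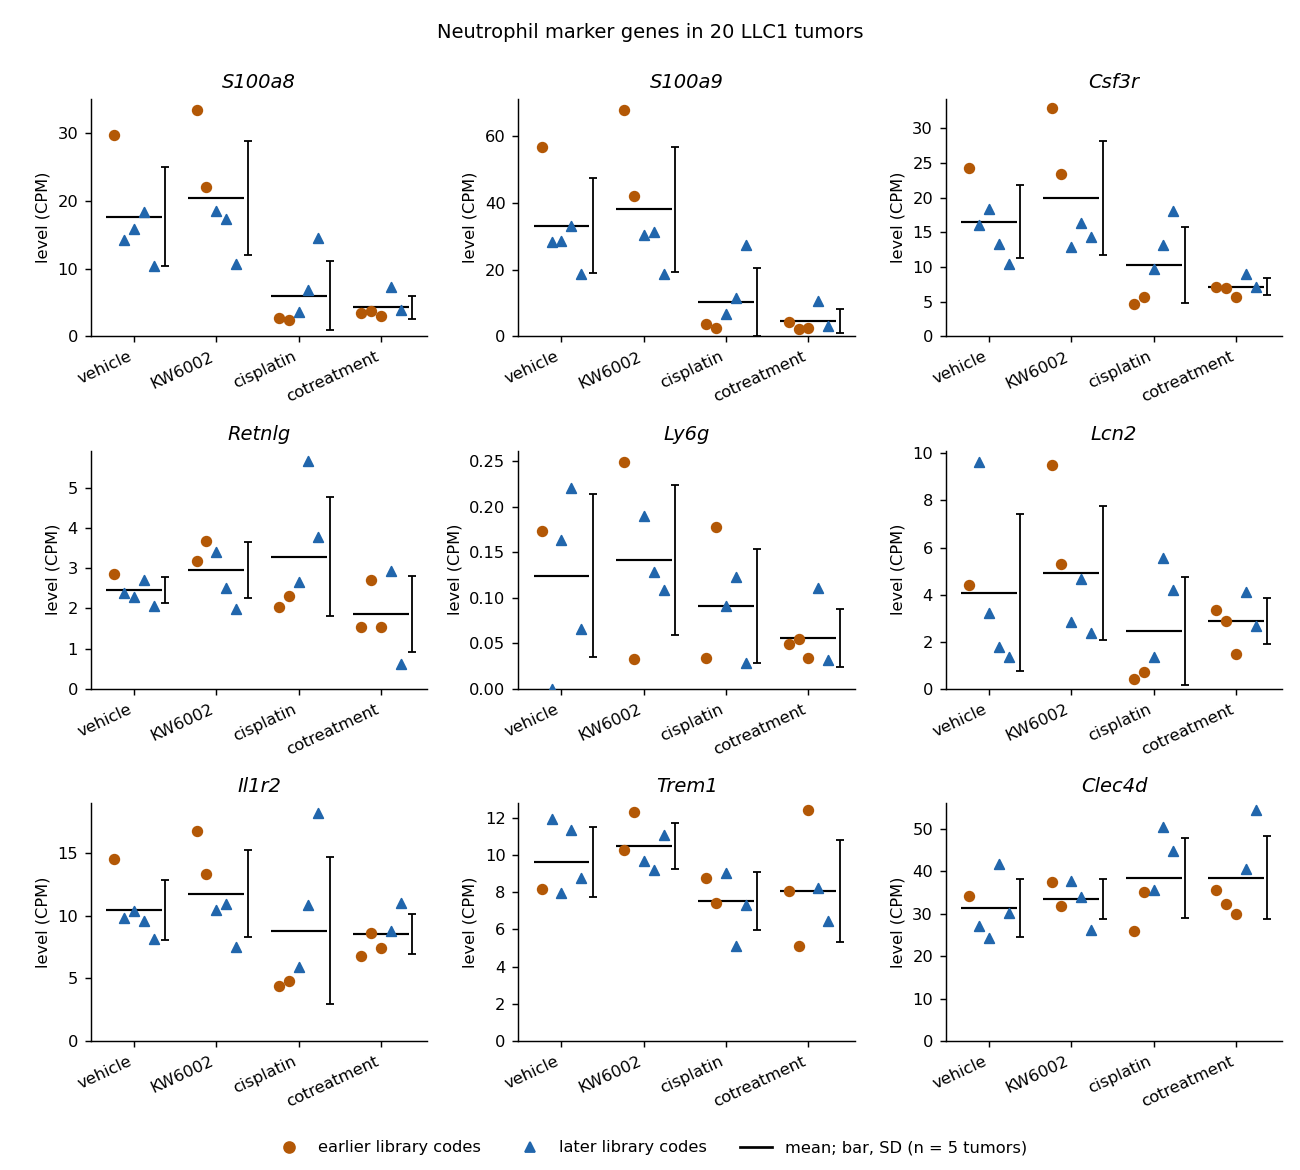
Level of each member in CPM (linear axis from 0) in every tumor, by treatment group, with circles for the earlier and triangles for the later library codes, a line at the mean and a bar of 1 SD (n = 5 tumors). In S100a8 and S100a9, 9 of the 10 tumors given cisplatin lie below all tumors not given it, while Clec4d spans 24.2 to 54.5 CPM with overlapping groups.

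The remaining members were not called against vehicle in either cisplatin group. Clec4d (chromosome 6, 123262111 to 123275265), a C-type lectin that signals through the adaptor Fcer1g, was measured at 34.1, 27.1, 24.2, 41.8 and 30.1 CPM in vehicle replicates 1 to 5. After cisplatin it was at 26.0, 35.1, 35.6, 50.3 and 44.7 CPM and after cotreatment at 35.5, 32.2, 29.9, 40.5 and 54.5 CPM. All groups overlapped, and the log2 fold changes were 0.29 ± 0.185 in both comparisons (SE, adjusted P = 0.307 and 0.237, edgeR). These values lay above 0 where those of S100a8 lay below it, and the difference between the genes was not tested.

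Il1r2 (chromosome 1, 40074079 to 40125231), a decoy receptor that captures interleukin 1 without signaling, had 14.5, 9.84, 10.4, 9.55 and 8.15 CPM in vehicle replicates 1 to 5. It had 4.36, 4.77, 5.90, 10.8 and 18.2 CPM after cisplatin, so this group spread both below and above vehicle, and 6.80, 8.60, 7.47, 8.81 and 11.01 CPM after cotreatment. Its log2 fold changes were -0.25 ± 0.323 and -0.30 ± 0.323 (SE), and the first was -0.69 without cisplatin replicate 5 and -0.07 without cisplatin replicate 1. In the later run alone the values were 0.32 and 0.085. Trem1 (chromosome 17, 48232768 to 48246924), a receptor that amplifies inflammatory signals through Tyrobp, had means of 9.62 ± 1.87 CPM for vehicle, 7.52 ± 1.56 for cisplatin and 8.05 ± 2.75 for cotreatment (SD, n = 5). Log2 fold changes were -0.36 ± 0.192 after cisplatin and -0.26 ± 0.192 after cotreatment (SE). Leaving out a tumor, the value after cotreatment ranged from -0.45 to -0.12, and it was called without cotreatment replicate 3 (adjusted P = 0.0491, edgeR).

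Lcn2 (chromosome 2, 32384633 to 32388252), which binds bacterial siderophores and is made by epithelium as well as by neutrophils, varied widely within groups. In vehicle tumors it ranged from 1.34 to 9.63 CPM and in cisplatin tumors from 0.406 to 5.55 CPM, and its log2 fold changes of -0.73 ± 0.641 and -0.49 ± 0.635 (SE) were not called. The value after cisplatin was -1.26 without cisplatin replicate 4, and without vehicle replicate 2 the values were -0.12 after cisplatin and 0.12 after cotreatment. Retnlg (chromosome 16, 48872621 to 48874496), a resistin-like protein of myeloid cells, had means of 2.46 ± 0.325 CPM for vehicle, 2.95 ± 0.693 for KW6002, 3.29 ± 1.49 for cisplatin and 1.87 ± 0.951 for cotreatment (SD, n = 5). The log2 fold changes against vehicle were 0.42 ± 0.315 after cisplatin and -0.39 ± 0.32 after cotreatment (SE, adjusted P = 0.381 and 0.367). Leaving out a tumor, they ranged from 0.15 to 0.56 after cisplatin and from -0.60 to -0.16 after cotreatment.

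KW6002 alone was compared with vehicle to ask whether blockade of this receptor altered the members without cisplatin. Of 8 members 0 were called in edgeR, 0 had an unadjusted P value under 0.05 and 0 were called in DESeq2, and 0% of all genes tested were called in this comparison. The log2 fold changes lay between 0.09 for Clec4d and 0.28 for Lcn2, with the largest SE at 0.628. KW6002 replicate 1 was the highest tumor of its group in S100a8, S100a9, Csf3r, Il1r2 and Lcn2, and without it the values of S100a8, S100a9 and Lcn2 were -0.04, -0.11 and -0.10.

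Cotreated tumors were compared with cisplatin tumors to measure the effect of KW6002 under cisplatin. Again 0 members were called in edgeR and 0 in DESeq2, 1 had an unadjusted P value under 0.05, and 4% of all genes tested were called. That member was Retnlg, with values of 2.03, 2.31, 2.66, 5.67 and 3.79 CPM after cisplatin and 1.54, 2.70, 1.54, 2.95 and 0.624 CPM after cotreatment. Its log2 fold change was -0.81 ± 0.317 (SE, adjusted P = 0.131). S100a9 had a value of -1.17 ± 0.61 (adjusted P = 0.263), Csf3r -0.51 ± 0.338 (adjusted P = 0.378) and S100a8 -0.50 ± 0.465 (adjusted P = 0.554). Without cisplatin replicate 5 the S100a8 value was 0.14 and the S100a9 value -0.39. Leaving out a tumor, the Csf3r value ranged from -0.695 to -0.206. Within the earlier run S100a8 and Csf3r were at 0.41 and 0.33, and S100a9 at -0.03. In the later run, with 3 cisplatin and 2 cotreated tumors, cotreated means were lower. Cisplatin and cotreated means there were 8.35 and 5.58 CPM for S100a8, 13.6 and 8.06 for Csf3r, and 15.2 and 6.95 for S100a9. In the interaction, which compares the effect of KW6002 with and without cisplatin, 0 members were called in edgeR and 0 in DESeq2 against 0.066% of all genes, and the 1 member at an unadjusted P value under 0.05 was again Retnlg at -1.07 ± 0.448 (adjusted P = 0.331). S100a9 was at -1.37 ± 0.832 (adjusted P = 0.534), and leaving out a tumor it ranged from -1.96 to -0.595.

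Cotreated tumors were also set against KW6002 tumors, which measures cisplatin on top of KW6002. The same 3 members as against vehicle were called, S100a8 at -2.25 ± 0.47, S100a9 at -3.05 ± 0.628 and Csf3r at -1.47 ± 0.339 on the log2 scale (SE, adjusted P = 0.00133, 0.00129 and 0.00263, edgeR), where 10.7% of all genes were called lower. These cotreated tumors are also those compared with vehicle. The runs were also fitted alone, and the difference between them was not tested for this comparison. In the earlier run alone, with 3 cotreated and 2 KW6002 tumors, 6 members were called lower and 20.9% of all genes were called in either direction. S100a9 was at -4.18 (adjusted P = 0.00112), S100a8 at -3.03 (adjusted P = 2.05e-05), Csf3r at -2.09 (adjusted P = 0.000102), Lcn2 at -1.53 (adjusted P = 0.0187), Il1r2 at -0.98 (adjusted P = 0.00201) and Retnlg at -0.83 (adjusted P = 0.0456). In the later run alone 0 members were called, beside 9.6% of all genes in either direction, with S100a9 at -1.93 (adjusted P = 0.112) and Il1r2 at 0.05.

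When all 10 tumors given cisplatin were set against all 10 that were not, 4 of 8 members were called lower, beside 9.23% of all genes tested. S100a9 fell by 2.36 ± 0.43 on the log2 scale (SE, adjusted P = 0.000332, edgeR), a 5.14-fold lower level. S100a8 fell by 1.90 ± 0.328 (adjusted P = 0.000186) and Csf3r by 1.08 ± 0.238 (adjusted P = 0.0014). These 3 calls held without any single tumor. Trem1 fell by 0.37 ± 0.136 (adjusted P = 0.0329), a change near the fold limit that was lost in 7 of the 20 fits leaving out a tumor, those without vehicle replicate 2 or 4, KW6002 replicate 2 or 5, cisplatin replicate 4, or cotreatment replicate 2 or 5 (adjusted P up to 0.0726). The other values were -0.75 ± 0.451 for Lcn2, -0.36 ± 0.228 for Il1r2, -0.12 ± 0.223 for Retnlg and 0.24 ± 0.131 for Clec4d (adjusted P = 0.197, 0.223, 0.708 and 0.144). Il1r2 was called without cisplatin replicate 5, at -0.58.

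Within the later run, where 5 tumors given cisplatin were compared with 7 not given it, 18.9% of all genes were called in either direction. S100a8 was at -1.13 (adjusted P = 0.0373), S100a9 at -1.38 (adjusted P = 0.0412) and Trem1 at -0.44 (adjusted P = 0.0367), all called, whereas Csf3r at -0.46 was not (adjusted P = 0.0599). Clec4d was called higher in this run, at 0.54 (adjusted P = 0.0243). The values of S100a8, S100a9 and Csf3r in the later run alone were closer to 0 than those over both runs.

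**Figure D2:**
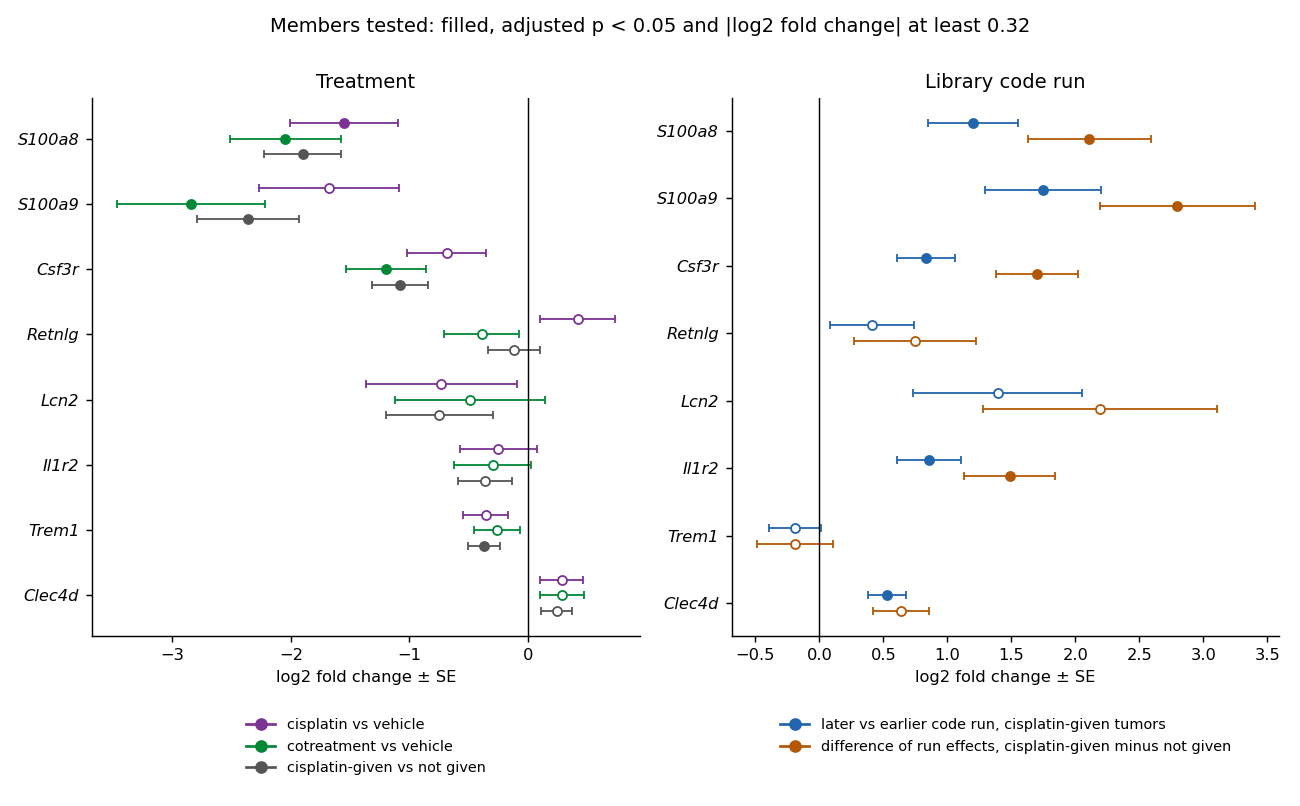
Log2 fold change ± SE of the 8 members tested, for treatment comparisons (left) and library code runs (right), with filled circles where the adjusted P value is under 0.05 and the absolute log2 fold change at least 0.32. Of the comparisons drawn, S100a9 has the lowest value of the members in each on the left, down to -2.85 in cotreatment against vehicle, and the highest value for the difference of run effects, 2.80.

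The code runs were then compared directly. With 1 run term for all tumors, 0 of 8 members were called in edgeR and 0 in DESeq2, 0 had an unadjusted P value under 0.05, and 0.006% of all genes were called. S100a9 was higher in the earlier run in tumors not given cisplatin. The earlier and later means of S100a9 were 55.0 and 26.7 CPM in KW6002 tumors, and the 1 earlier vehicle tumor stood at 56.8 CPM against a later mean of 27.2 CPM. In tumors given cisplatin it was higher in the later run, at 3.13 CPM in 2 earlier and 15.2 CPM in 3 later cisplatin tumors, and at 3 CPM in 3 earlier and 6.95 CPM in 2 later cotreated tumors.

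Csf3r followed the same pattern, with earlier and later means of 28.1 and 14.5 CPM in KW6002, 5.22 and 13.6 CPM in cisplatin and 6.60 and 8.06 CPM in cotreated tumors. Il1r2 did so too, at 15.0 and 9.62 CPM in KW6002 and 4.57 and 11.7 CPM in cisplatin tumors. Clec4d had earlier and later means of 34.7 and 32.6 CPM in KW6002 tumors, 30.6 and 43.5 CPM in cisplatin tumors and 32.5 and 47.5 CPM in cotreated tumors. The difference between its run effects with and without cisplatin was 0.64 ± 0.218 on the log2 scale, which was not called (SE, adjusted P = 0.0977, edgeR).

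Among tumors given cisplatin, 5 of 8 members were called higher in the later run, against 4.65% of all genes. The log2 fold changes were 1.75 ± 0.45 for S100a9, 1.2 ± 0.35 for S100a8, 0.85 ± 0.249 for Il1r2, 0.83 ± 0.227 for Csf3r and 0.53 ± 0.148 for Clec4d (SE, adjusted P = 0.0225, 0.0339, 0.0318, 0.0246 and 0.027, edgeR). Lcn2 was at 1.39 ± 0.66 (adjusted P = 0.159), Retnlg at 0.41 ± 0.33 (adjusted P = 0.41) and Trem1 at -0.19 ± 0.201 (adjusted P = 0.54). These calls were fragile. Each was lost in 3 to 5 of the 20 fits leaving out a tumor, and without cisplatin replicate 1 all of them were lost. In these fits Retnlg ranged from 0.16 to 0.79, and it was called without cotreatment replicate 5 (adjusted P = 0.0388). Fewer members were called with no filter on low counts, or with only the tumors given cisplatin in the fit. No member was called with replicate number as a block, which takes up most of this run effect. The fit of all 20 tumors also called genes of other lists higher in this comparison. They included 5 of 12 monocyte and macrophage genes and 8 of 15 mature neutrophil genes, with 0 called lower in either list. Of 5 general leukocyte genes and 7 T and NK cell genes 0 were called.

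The difference between the run effects with and without cisplatin was called for 4 of 8 members, beside 0.798% of all genes called higher. It was 2.80 ± 0.604 on the log2 scale for S100a9, 2.11 ± 0.479 for S100a8, 1.70 ± 0.319 for Csf3r and 1.49 ± 0.354 for Il1r2 (SE, adjusted P = 0.0431, 0.0441, 0.0271 and 0.0452, edgeR). Adjusted P values were close to the threshold, and the calls were lost in 6 to 13 of the 20 fits leaving out a tumor, vehicle replicate 1 and KW6002 replicate 1 among them. Of the tumors not given cisplatin, 3 carry earlier codes.

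Across the 20 tumors the members did not vary as 1 block. With group means removed, Pearson's r of log2 CPM was 0.961 for S100a8 with S100a9, 0.916 for S100a8 with Il1r2, 0.887 for S100a8 with Csf3r and 0.859 for Csf3r with Lcn2. Clec4d and Retnlg followed less closely, with highest values of 0.62 for Clec4d with Il1r2 and 0.571 for Retnlg with S100a8, and Trem1 was negative with all 7 other members tested, from -0.345 to -0.103. These values describe 20 tumors that share treatment groups and code runs, and no test was attached to them.

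**Figure D3:**
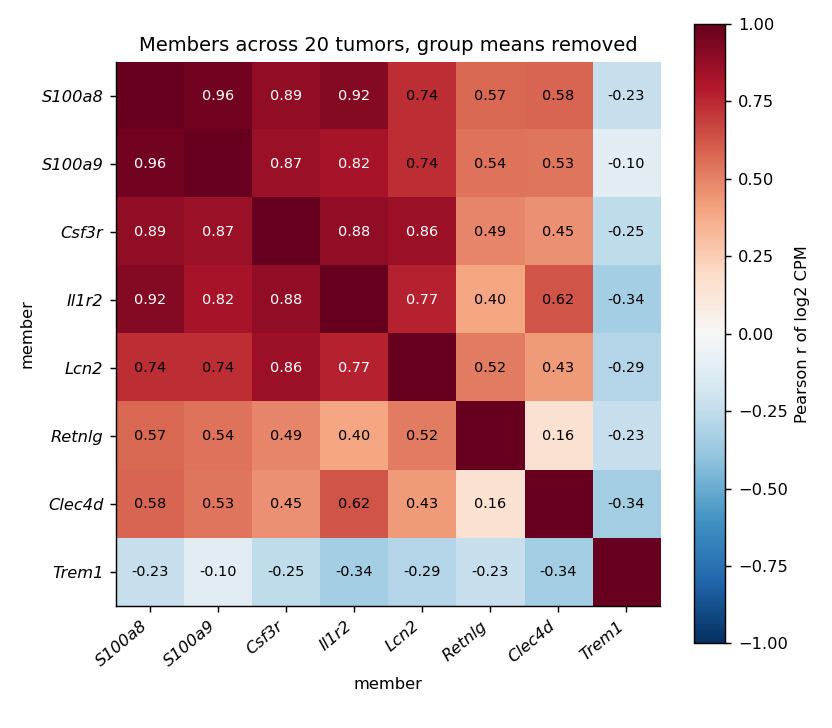
Pearson's r of log2 CPM between the 8 members tested, over 20 tumors with group means removed (color scale from -1 to 1). S100a8, S100a9, Csf3r, Il1r2 and Lcn2 form the dark block, with 0.961 for S100a8 and S100a9, and the Trem1 row is negative.

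The genes whose pattern over the 20 tumors was most like that of the members were Zc3h12a (r = 0.905), an RNase that degrades inflammatory mRNAs, Cxcl1 (r = 0.905), a ligand of Cxcr2, Clec4e (r = 0.871), a lectin receptor encoded near Clec4d, Hilpda (r = 0.864) and Trim30b (r = 0.863). Likeness was measured to the mean of the members with group means removed. Of these genes Cxcl1, Clec4e and Trim30b fell after cotreatment, with log2 fold changes of -1.502, -0.99 and -1.38 (adjusted P = 0.0401, 0.00102 and 0.00501, edgeR), and 0 of the 5 were called after cisplatin. The shares of all genes called lower were 10.4% after cotreatment and 4.57% after cisplatin.

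Other genes of mature and activated neutrophils came from a list of 18, chosen with earlier results of these data known. Of these genes 15 were tested. After cisplatin 2 were lower, Cxcr2 at -1.62 ± 0.41 and Slfn4 at -1.51 ± 0.372 (SE, adjusted P = 0.0112 and 0.0109, edgeR). After cotreatment 6 were lower, namely Cxcr2, Slfn4, Hdc, Stfa2l1, Clec4e and Il1b, the gene of interleukin 1 beta, which fell by 2.93 ± 0.544 (adjusted P = 0.000532). Over all tumors given cisplatin, 8 of 15 were lower and 0 higher, with a median of -1.19. The shares of all genes called lower in these 3 comparisons were 4.57%, 10.4% and 9.23%. Of the 5 granule genes tested 1 was called in the comparisons with vehicle, and it was higher. In cotreated against KW6002 tumors Mmp9 was called lower, at -1.19 (adjusted P = 0.0147), and in the later code run 3 of the 5 were higher among tumors given cisplatin, against 4.65% of all genes. The gene called against vehicle was Chil3, which macrophages also transcribe, at 6.71 ± 2.07 CPM in vehicle, 34.5 ± 16.9 after cisplatin and 48.8 ± 28.3 after cotreatment (SD, n = 5).

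Growth factors and chemokines that act on neutrophils were lower after cotreatment in 4 of 5 tested genes and after cisplatin alone in 0 of 5, where 10.4% and 4.57% of all genes were called lower. Cotreated tumors set directly against cisplatin tumors gave 0 of 5 calls in edgeR, as did the interaction. Unadjusted P values were under 0.05 for 2 of these genes after cisplatin, 3 in cotreated against cisplatin tumors and 0 in the interaction. Csf3, the ligand of Csf3r, had 2.78 ± 2.06 CPM in vehicle, 2.41 ± 1.67 in KW6002, 0.792 ± 0.967 after cisplatin and 0.195 ± 0.0677 after cotreatment (SD, n = 5). It fell by 3.81 ± 0.815 on the log2 scale after cotreatment (SE, adjusted P = 0.00145, edgeR). The Cxcr2 ligands Cxcl1, Cxcl2 and Cxcl3 fell too, with log2 fold changes of -1.502, -2.503 and -2.80 (adjusted P = 0.0401, 0.00501 and 0.00356). In tumors given cisplatin, 4 of the 5 genes were higher in the later code run, against 4.65% of all genes, Cxcl3 by 2.49 and Cxcl2 by 1.83 (adjusted P = 0.00434 and 0.00862).

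Among 14 ligands, receptors and adaptors of the members, 5 were lower and 2 higher after cotreatment, where 10.4% and 13.1% of all genes were called. Besides Csf3, Il1b and Clec4e, the lower genes were Il1rn, the interleukin 1 receptor antagonist, at -1.74 ± 0.265, and the lectin Clec4n at -0.49 ± 0.1 (SE, adjusted P = 6.17e-05 and 7e-04, edgeR). The higher genes were Ager, a receptor for S100 proteins, at 1.18 ± 0.212, and Slc22a17, a receptor for lipocalin 2, at 0.69 ± 0.16 (adjusted P = 0.000227 and 0.00193). Il1rn and Clec4n were also lower in cotreated than in cisplatin tumors, at -1.07 and -0.51 (adjusted P = 0.0214 and 0.00605).

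**Figure D4:**
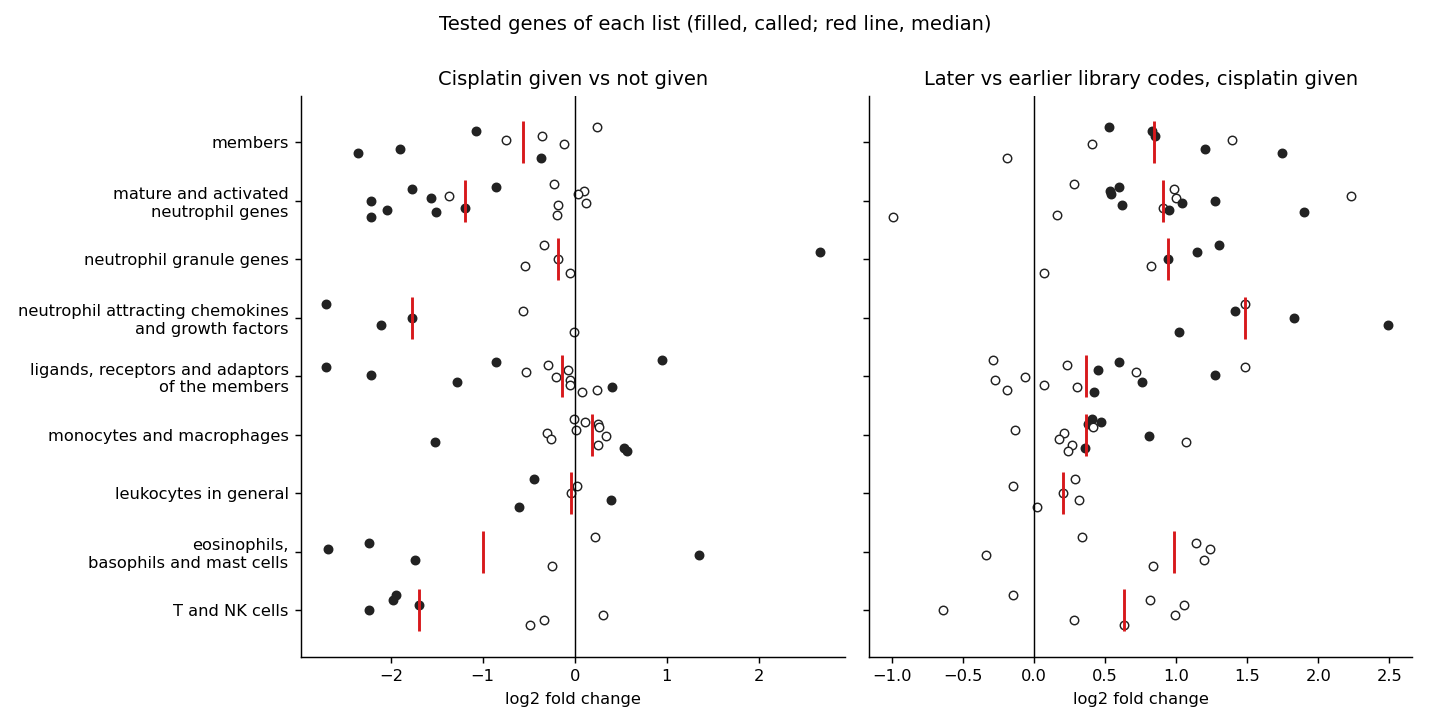
Log2 fold change of each tested gene in the members and in lists of related genes and of other cell types, for tumors given cisplatin against those not given it (left) and for later against earlier library codes among tumors given cisplatin (right), with filled points where a gene was called and a red line at the list median. The mature neutrophil list has a median of -1.19 on the left and 0.91 on the right.

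Markers of other cells moved with the comparison of tumors given and not given cisplatin, where 9.23% of all genes were called lower and 12.6% higher. In a list of 12 monocyte and macrophage genes, 2 were called higher in tumors given cisplatin, 1 lower and 9 not called. Mrc1 was higher, at 0.57, and the monocyte gene Ly6c2 was lower, at -1.52. The summed level of this list was 2376 to 3510 CPM in vehicle, 2532 to 3482 in KW6002, 3287 to 4457 in cisplatin and 2789 to 3952 in cotreated tumors, and all of these ranges overlapped. Lyz2 alone, with a mean of 1534 CPM in vehicle tumors, made up a large part of these sums. Of 5 general leukocyte genes 2 were lower and 1 higher, with Ptprc at -0.61. Of 6 eosinophil, basophil and mast cell genes tested 3 were lower, Mcpt4 at -2.68, Cpa3 at -2.24 and Ms4a2 at -1.74, and the basophil gene Mcpt8 was higher, at 1.35 (adjusted P = 4.69e-05, 0.000169, 0.000956 and 1.52e-05). Hdc, counted above among mature neutrophil genes, is also transcribed by mast cells and basophils. T and NK cell genes were lower in 4 of 7, although 0 of 7 were called against vehicle after cisplatin or after cotreatment in edgeR, and their summed level was 25.6 CPM in KW6002 replicate 1 against 2.12 to 10.4 CPM in the other tumors not given cisplatin. Red blood cell genes were lower in 5 of 5, and their summed level was 25.6 to 117 CPM without cisplatin and at most 0.11 CPM with it. Epidermal genes summed to at most 1.90 CPM in any tumor. The part of these cells in the levels of the members was not tested.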

How the data were processed

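RNA from 20 LLC1 tumors was sequenced by the authors as stranded poly(A) libraries of single-end reads. Per the labels and the study's methods, base calls were converted with bcl2fastq 2.17.1.14, reads were aligned to mm10 with STAR, and unique reads per gene were counted with HTSeq 0.6.1p1. The strand option is not given in the sources used here. The deposited values are raw counts per gene. From these, 16665 of 35226 genes passed edgeR's filterByExpr by group. Genes were tested with edgeR 4.0.16 (R 4.3.3, limma 3.58.1), using TMM scaling, all 20 tumors in 1 fit, robust quasi-likelihood tests and Benjamini-Hochberg adjustment over all tested genes. A gene was called at adjusted P under 0.05 and an absolute log2 fold change of at least 0.32. Tests were two-sided, and the script was tested on simulated data. DESeq2 1.42.0, other filters and scalings, single code runs and leaving out each tumor were alternatives. Gene positions came from GENCODE M21 and promoters from RefSeq GRCm38.p6. Named genes were all members, up to 6 called genes per related list and the 5 genes most like the mean standardised level of the members, among genes with a mean of at least 50 counts. Members and lists were chosen with earlier results of these data known. The labels number tumors within groups, and P values measure the spread between these tumors. The values of 1 related gene are not reported here.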

Additional observations from a re-analysis of the deposited data

Results flagged for a closer look

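Cotreatment replicate 4 stood apart from the other 4 cotreated tumors in S100a8, at 7.29 CPM, and in S100a9, at 10.7 CPM. These were 2 of 36 groups examined, of which chance would flag about 1 in 20. The difference of run effects between tumors given and not given cisplatin was called for 4 members, by an interaction test in edgeR. Of all genes tested, 0.798% were called higher in that test. The differences were 2.11 for S100a8, 2.80 for S100a9, 1.70 for Csf3r and 1.49 for Il1r2 on the log2 scale (adjusted P = 0.0441, 0.0431, 0.0271 and 0.0452). These calls were lost in 6 to 13 of the 20 fits leaving out a tumor, and no member was called with replicate number as a block. What the library codes stand for was not tested.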

How the results depend on the processing

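Under other settings 455 values kept their direction and side of the threshold, 28 lost the call, 7 gained it and 10 changed sign, and leaving out a tumor these numbers were 1111, 77, 6 and 6. The count of members called after cisplatin against vehicle was 2 in DESeq2, 0 with no filter on low counts, 0 with only the groups compared and 0 in the later run alone, and 0 to 2 leaving out a tumor. After cotreatment it was 1 against vehicle and 0 against KW6002 in the later run alone, and 6 against KW6002 in the earlier run alone. For the code run among tumors given cisplatin it was 1 with no filter, 1 with only those 10 tumors and 0 to 5 leaving out a tumor, and for the difference of run effects it was 0 to 4. With the replicate block, both run counts were 0. Among tumors given cisplatin only replicate 3 differs in code run between groups, so the block takes up most of that run effect, whereas the difference of run effects can still be estimated within numbers. Same-numbered tumors did not deviate together (correlations from -0.392 to 0.391, median -0.026, 3 of 20 correlating best with their own number), so the numbers do not pair the tumors. The causes of these shifts were not tested.

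In the later run alone, log2 fold changes with the opposite sign were, against vehicle, -0.013 for S100a9 and -0.27 for Lcn2 after KW6002, 0.32 for Il1r2 after cisplatin and 0.085 for Il1r2 after cotreatment. Against KW6002 they were 0.056 for Lcn2 and 0.052 for Il1r2 after cotreatment, and for cisplatin given against not given 0.12 for Retnlg and 0.18 for Il1r2. In the earlier run alone they were 0.41 for S100a8 and 0.33 for Csf3r in cotreated against cisplatin tumors. Leaving out a tumor, values after KW6002 ranged from -0.10 to 0.89 for Lcn2, -0.043 to 0.48 for S100a8 and -0.11 to 0.49 for S100a9. Those of Lcn2 after cotreatment ranged from -0.70 to 0.12, of Retnlg for cisplatin given from -0.25 to 0.001, and of S100a8 in cotreated against cisplatin tumors from -0.78 to 0.14. None of these values was called in the fit of all 20 tumors. Depth limits Ly6g, with at most 8 counts in any tumor.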
